A study of Mus musculus with 3 samples.

Results

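Pericytes were taken from scRNA-seq of mouse ventricle as the cells whose UMIs of *Rgs5*, *Vtn*, *Kcnj8* and *Higd1b* numbered at least 5 and exceeded those of *Acta2*, *Tagln* and *Myh11*. A UMI (unique molecular identifier) stands for 1 counted RNA molecule. The pericyte UMIs also had to exceed 2 times the UMIs of *Pecam1*, *Cdh5*, *Kdr* and *Egfl7* for endothelial cells (ECs), of *Col1a1*, *Col1a2* and *Pdgfra* for fibroblasts (FBs), and of *Ptprc*, *Tyrobp* and *C1qa* for blood cells. Among 6915 cells with at least 200 genes, 215 were chosen by these measured values, 165 in the healthy library, 31 in adaptive hypertrophy and 19 in heart failure. Smooth muscle cells (SMCs) were chosen by the mirrored rule and numbered 276, 44 and 21. Because both classes were chosen by their counts, every level below is a description without a test.

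Pericytes lie in the basement membrane of capillaries and small vessels, next to ECs, and share a mural lineage with SMCs, which wrap arteries and veins. ECs release PDGF-BB, which binds the receptor encoded by *Pdgfrb* on pericytes, and Notch3 receives signals from endothelial ligands in both mural cell types. The heart is rich in capillary pericytes, which are known for an ATP-sensitive potassium channel made of the *Kcnj8* pore and the *Abcc9* subunit, while arterial SMCs are known for the contractile proteins encoded by *Acta2*, *Tagln* and *Myh11*.

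Non-cardiomyocytes (non-CMs) came from the ventricles of wild-type mice (C57BL/6JJcl, male), dissociated with collagenase and passed through filters. The 3 phases were healthy mice labelled as controls (0 weeks), adaptive hypertrophy at 2 weeks and heart failure at 12 weeks of transverse aortic constriction (TAC), a ligation of the aortic arch around a spacer needle that loads the left ventricle with pressure. Surgery was done at 8 weeks of age. Each phase is 1 droplet library, the number of hearts in it is not given in the sources used here, and phase, library, age and cell recovery cannot be told apart, so that intervals (95%) cover counting error only and not the spread between hearts.

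Depth was uneven over the 3 phases. The pericytes held 682994 UMIs in the healthy library, 81698 in adaptive hypertrophy and 37434 in heart failure, with medians of 3351, 2232 and 1502 UMIs per cell. A single UMI was therefore worth 1.46, 12.2 and 26.7 CPM (UMIs per 1000000 UMIs of the class), and 1 cell gave 21.9% of all pericyte UMIs in heart failure. The median mitochondrial share was 3.46%, 8.88% and 6.13%. Between 1 and 5 cell barcodes were shared by any 2 libraries, and 1 of them belonged to a pericyte. Scrublet called 3, 0 and 0 pericytes as doublets.

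*Rgs5*, a regulator of G protein signalling, carried the choice. It made up 87.7%, 93.2% and 85.8% of the rule UMIs of the pericytes at 0, 2 and 12 weeks. Its level in the summed pericytes was 9271 CPM in the healthy library, 11665 CPM in adaptive hypertrophy and 11914 CPM in heart failure. Members lay well above the limit of 5, with medians of 36, 23 and 20 rule UMIs. Only 1, 2 and 0 members had 5 or 6 of them, and 2, 0 and 0 cells at 3 or 4 would otherwise have passed. The limit against smooth muscle UMIs divided far more cells. Of the 359, 80 and 40 cells with at least 5 rule UMIs, 159, 34 and 14 were left out because their smooth muscle UMIs were not below. With smooth muscle UMIs at 0.75 to 1 of the rule UMIs there were 27, 4 and 1 members, and 28, 5 and 2 cells lay as close on the other side.

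Other markers were present at lower levels. *Ndufa4l2* and *Cox4i2*, isoforms of mitochondrial respiratory subunits, stood at 988 and 808 CPM in healthy pericytes. *Notch3* was at 416 CPM and *Pdgfrb* at 346 CPM there. All of the 22 pericyte markers outside the rule except *Ggt1* had UMIs in the healthy pericytes, and *Tbx18* was also at 0 UMIs in both TAC libraries. Cells of other kinds left traces too. The 15 endothelial markers outside the rule summed to 10694, 13929 and 10953 CPM in pericytes against 30073, 42299 and 34518 CPM in ECs, and none of the 15 was at 0 in the pericytes of any library. *Fabp4*, a fatty acid carrier of capillary ECs, alone gave 4553, 5826 and 4675 CPM in pericytes, beside 1070, 2012 and 792 CPM in SMCs and 239, 749 and 177 CPM in blood cells. Blood cell markers outside the rule summed to 1004, 97.9 and 882 CPM in pericytes, with *C1qb* and *C1qc* at 0 UMIs in both TAC libraries. The *Myh6* gene of cardiomyocytes was at 0 UMIs in the pericytes of every library, although other cardiomyocyte markers had UMIs there, as given further below. How far such transcripts enter the levels below was not tested.

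The name pericyte covered an uneven set of cells, because members ranged from no smooth muscle UMIs to nearly as many as pericyte UMIs. Cells with smooth muscle UMIs at most 0.1 of their pericyte UMIs are called low here, those above 0.25 high and the others middle, limits that were set after the data were seen. In the healthy library 48 pericytes were low, 18 middle and 99 high, so that 60.0% (52.1 to 67.5) were high. High cells numbered 17 of 31 in adaptive hypertrophy and 6 of 19 in heart failure, or 54.8% (36.0 to 72.7) and 31.6% (12.6 to 56.6). The median cell had 0.389, 0.308 and 0.158 smooth muscle UMIs per pericyte UMI.

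**Figure D1:**
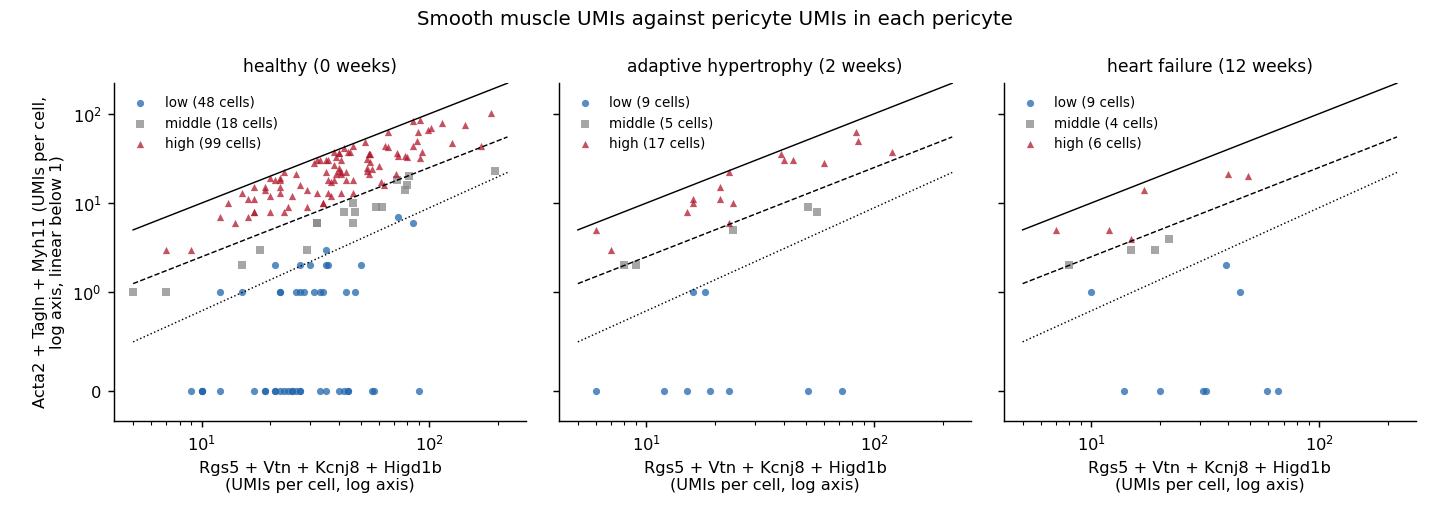
Each point is 1 pericyte, with the summed UMIs of *Rgs5*, *Vtn*, *Kcnj8* and *Higd1b* on a logarithmic horizontal axis and those of *Acta2*, *Tagln* and *Myh11* on a logarithmic vertical axis that is linear below 1. The solid line marks equal UMIs, the dashed line a ratio of 0.25 and the dotted line a ratio of 0.1. Of the healthy pericytes, 99 lie above the dashed line and 27 at a smooth muscle count of 0.

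Genes outside the rule divided along the same axis in the healthy library. *Abcc9* stood at 548 CPM in low cells, 120 CPM in middle cells and 33.2 CPM in high cells, a ratio of 16.5 (9.45 to 30.9) between low and high. *Colec11*, a secreted collectin, stood at 555, 120 and 53.1 CPM, a ratio of 10.5 (6.56 to 17.2). *P2ry14*, a receptor for UDP-sugars, was 6.31 times (3.38 to 12.3) higher in low cells, *Steap4*, a metalloreductase, 2.88 times (2.09 to 3.96), and *Pdgfrb* 2.11 times (1.58 to 2.81). The channel subunit and the collectin were most abundant in low cells and were still present in middle and high cells.

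The rule genes helped to choose the cells and to set the axis, so their levels along it only describe the choice. *Kcnj8* was at 846 CPM in low, 240 CPM in middle and 19.9 CPM in high healthy pericytes. *Vtn*, which encodes the matrix protein vitronectin, was at 1049, 240 and 237 CPM. *Rgs5* differed little, at 7878, 10055 and 9582 CPM, and *Higd1b*, a mitochondrial membrane protein of the hypoxia-inducible family, was at 514, 793 and 684 CPM. Outside the rule, *Notch3* at 338 and 445 CPM, *Cspg4* at 94.8 and 102 CPM, and *Gja4*, a gap junction protein, at 264 and 292 CPM had intervals of the low to high ratio that included 1.

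Contractile genes outside the rule ran the other way. *Myl9*, a myosin light chain, was at 176 CPM in low, 529 CPM in middle and 1376 CPM in high cells. *Tpm2*, a tropomyosin, was at 244, 541 and 1166 CPM, and *Mylk*, the kinase that activates smooth muscle myosin, at 176, 396 and 781 CPM. *Des*, an intermediate filament gene used as a pericyte marker in other tissues, was also higher in high cells, at 429 against 190 CPM. *Fabp4* was higher in low cells, at 7283 against 3387 CPM, as was the basement membrane collagen gene *Col4a1*, at 792 against 312 CPM. Low cells were shallower, with a median of 2190 UMIs against 3806 in high cells.

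**Figure D2:**
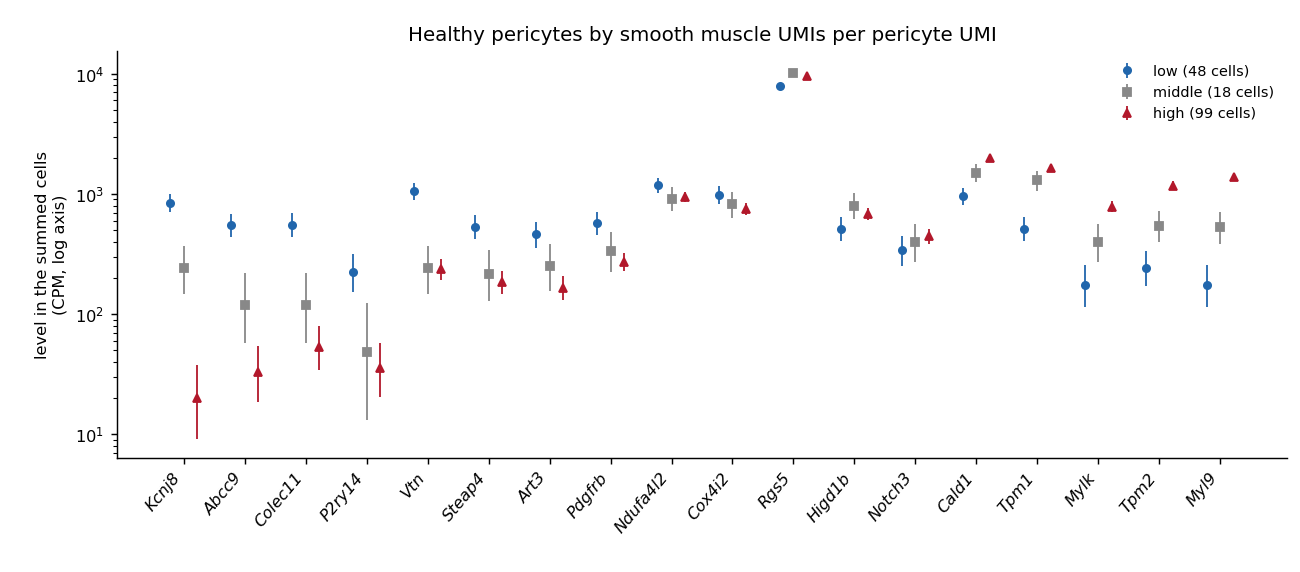
Levels in the summed healthy pericytes (CPM, logarithmic axis) of 18 genes in low, middle and high cells, with 95% Poisson intervals for counting error. *Kcnj8*, *Abcc9* and *Colec11* are at 548 CPM or more in low cells and at 53.1 CPM or less in high cells, *Rgs5*, *Higd1b* and *Notch3* lie close together, and *Myl9*, *Tpm2* and *Mylk* are highest in high cells.

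Cell by cell the same division was visible. An *Abcc9* or *Colec11* UMI was in 40 of 48 low healthy pericytes, or 83.3% (69.8 to 92.5), in 9 of 18 middle cells and in 21 of 99 high cells, or 21.2% (13.6 to 30.6). After each cell was thinned to 1000 UMIs, these shares were 58.3% in low and 6.06% in high cells. In healthy ECs, at a median of 2687 UMIs, the share with a UMI was 1.64% for *Abcc9* and 2.89% for *Colec11*. All 99 high cells and 36 of 48 low cells had a UMI of *Myl9*, *Tpm2* or *Mylk*. In adaptive hypertrophy an *Abcc9* or *Colec11* UMI was in 3 of 9 low and 2 of 17 high cells, and the ratios between low and high, 4.66 for both genes on 7 and 3 UMIs in all pericytes, had intervals that included 1. Contractile genes were lower in the low cells there, with ratios of 0.0597 (0.0161 to 0.156) for *Myl9* and 0.198 (0.0519 to 0.542) for *Mylk*. In heart failure 8 of 9 low and 1 of 6 high cells had an *Abcc9* or *Colec11* UMI. The contractile genes were not divided in the same way in that library, where *Myl9* had a ratio of 1.01 (0.499 to 2.03), *Mylk* 1.22 (0.386 to 3.94) and *Tpm2* 0.316 (0.124 to 0.714), and 7 of 9 low cells had a UMI of 1 of these 3 genes. In the healthy library the data went against the name for the high cells. These are described here by their counts and given no other name. In adaptive hypertrophy the name was in doubt for low cells too. The 9 low cells there had 0 UMIs of *Kcnj8* and *P2ry14*, although *Notch3* was at 427 CPM. *Ndufa4l2* had a low to high ratio of 0.253 (0.0785 to 0.635) in that library.

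Positions and promoter sequences are given here for *Kcnj8*, *Abcc9*, *Acta2* and *Myl9*. *Kcnj8* (ENSMUSG00000030247, chromosome 6 from 142564837 to 142571614 of GRCm38, minus strand) and *Abcc9* (ENSMUSG00000030249, chromosome 6 from 142587862 to 142702315, minus strand) are neighbours with 16247 bases between them, and their levels were ordered alike over the 3 groups of cells. *Colec11*, on chromosome 12, was ordered like them. *Acta2* (ENSMUSG00000035783, chromosome 19 from 34241090 to 34255590, minus strand) and *Myl9* (ENSMUSG00000067818, chromosome 2 from 156775420 to 156781658, plus strand) ran opposite to these genes. *Kcnj8* and *Acta2* are rule genes that set the axis, so that their order along it only describes the choice. The 250 bases before the RefSeq start of each gene (GRCm38.p6) are shown 5′ to 3′ on the strand of the gene, to set the promoters of the channel genes beside those of the contractile genes. Capitals mark CArG boxes, the binding site of serum response factor, which drives contractile genes, searched on both strands with at most 1 G or C among the 6 middle bases. The windows are chr6:142571615-142571864 for *Kcnj8*, chr6:142702275-142702524 for *Abcc9*, chr19:34255374-34255623 for *Acta2* and chr2:156775214-156775463 for *Myl9*.
Kcnj8: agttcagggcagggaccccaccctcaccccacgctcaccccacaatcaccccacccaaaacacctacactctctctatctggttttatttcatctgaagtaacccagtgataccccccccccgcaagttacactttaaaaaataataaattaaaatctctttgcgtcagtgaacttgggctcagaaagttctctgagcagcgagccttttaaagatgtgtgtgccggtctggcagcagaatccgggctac
Abcc9: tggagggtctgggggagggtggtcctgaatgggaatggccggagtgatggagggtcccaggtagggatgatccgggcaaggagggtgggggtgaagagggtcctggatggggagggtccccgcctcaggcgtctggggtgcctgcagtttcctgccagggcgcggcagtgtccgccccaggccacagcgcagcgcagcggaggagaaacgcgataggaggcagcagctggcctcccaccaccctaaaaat
Acta2: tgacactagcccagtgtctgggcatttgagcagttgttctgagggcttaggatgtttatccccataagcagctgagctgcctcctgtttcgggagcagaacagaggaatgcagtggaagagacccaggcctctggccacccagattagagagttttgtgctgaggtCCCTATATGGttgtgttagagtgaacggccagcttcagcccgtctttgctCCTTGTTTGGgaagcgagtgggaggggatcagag
Myl9: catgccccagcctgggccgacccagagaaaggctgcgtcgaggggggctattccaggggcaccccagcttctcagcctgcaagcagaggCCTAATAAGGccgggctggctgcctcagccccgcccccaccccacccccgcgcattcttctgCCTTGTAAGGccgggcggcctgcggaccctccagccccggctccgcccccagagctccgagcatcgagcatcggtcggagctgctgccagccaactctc
*Acta2* held 2 such boxes, beginning 84 and 34 bases before the start, and *Myl9* held 2, beginning 161 and 99 bases before it, of which the first has only A and T in the middle. No match was found in the *Kcnj8* and *Abcc9* windows. Of all 32851 promoter windows of this length, 8.59% held a box of this form. Of the 17 pericyte markers outside the rule with a window, 2 held one (*Ggt1* and *Tbx18*), and of the 19 contractile genes with a window, 3 did (*Myl6*, *Myl9* and *Pcp4l1*). A match describes letters and does not show that a factor bound there.

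Set against SMCs of the same library, pericytes had higher levels of *Abcc9* and *Colec11* in each of the 3 libraries, on few UMIs after TAC. At least 2-fold higher in all 3 libraries (10 CPM added to each level, at least 20 UMIs over both classes) were 127 of 8134 genes, or 1.56%, and at least 2-fold lower were 89, or 1.09%. With ratios centred on the median gene these counts were 96 and 104. Of the 20 measured pericyte markers outside the rule, 5 were higher in all 3 libraries, among them *Abcc9*, *Colec11*, *P2ry14* and *Steap4*, and 0 lower, with a median log2 ratio of 0.79 against 0.09 over all genes. Of 22 contractile genes, 13 were lower in all 3 and 0 higher, with a median of -1.43. The counts belong to a contrast that the rule itself drew.

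*Abcc9* was at 155, 85.7 and 267 CPM in pericytes and at 3.97, 18.4 and 0 CPM in SMCs at 0, 2 and 12 weeks. The healthy ratio was 39.1 (14.8 to 146), and the 10 UMIs in heart failure stood against 0 UMIs in SMCs, which allow up to 30.5 CPM. *Colec11* was at 170, 36.7 and 534 CPM in pericytes and at 6.95, 0 and 0 CPM in SMCs. Its healthy ratio was 24.5 (11.5 to 62.2), but the 3 UMIs against 0 in adaptive hypertrophy gave a lower limit of 0.825, which does not exclude equal levels. *Steap4* was at 265, 171 and 882 CPM in pericytes and at 25.8, 36.8 and 91.4 CPM in SMCs, with ratios of 10.3 (6.79 to 16.1), 4.66 (1.68 to 14.8) and 9.65 (4.52 to 22.9). *Ifitm1*, an interferon-induced membrane protein, and *Lin7a*, a scaffold protein of cell junctions, had 57 and 38 UMIs in healthy pericytes against 4 and 2 in SMCs. In adaptive hypertrophy each had 1 UMI in pericytes and 0 in SMCs, too few to show a difference, and in heart failure 7 and 3 UMIs stood against 0.

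Several other leading genes were also abundant in ECs. *Rbp7*, a retinol carrier of capillary ECs, was at 534, 490 and 561 CPM in pericytes, at 78.4, 30.7 and 30.5 CPM in SMCs and at 364, 561 and 488 CPM in ECs. *Btnl9*, *Tmem88* and *Aqp7*, a glycerol channel, were higher in ECs than in pericytes in all 3 libraries, with *Aqp7* at 80.5, 135 and 134 CPM in pericytes and 199.5, 318 and 399 CPM in ECs. Restricting pericytes to those with over 10 times as many pericyte as endothelial UMIs brought the median log2 ratio from 3.62 to 1.69 for *Rbp7*, from 2.59 to 0.15 for *Tmem88* and from 2.50 to 1.12 for *Aqp7*. *Col6a1*, a collagen VI chain, was at 70.3, 73.4 and 134 CPM in pericytes and at 628, 1063 and 536 CPM in FBs.

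Among the genes lower in pericytes were *Cnn1* of the contractile machine and *Pln* of calcium handling, beside genes of other kinds. *Cnn1*, calponin, was at 5.86, 12.2 and 0 CPM in pericytes against 274, 215 and 416 CPM in SMCs. *Pln*, the phospholamban that restrains the calcium pump, was at 61.5, 49.0 and 26.7 CPM against 534, 650 and 528 CPM. *Ramp1*, a part of the receptor for the vasodilator CGRP, was at 26.4, 36.7 and 0 CPM against 193, 227 and 213 CPM. *Adcy5*, an adenylyl cyclase, *Nkd1*, a Wnt inhibitor, and *Sgca*, a sarcoglycan, completed the lower genes together with *Itih4*, *Sh3bgr*, *Tcap* and *Taf11*, and in *Taf11* the healthy levels of 36.6 and 38.7 CPM hardly differed. In heart failure *Itih4*, *Tcap*, *Adcy5*, *Sgca* and *Taf11* had 0 pericyte UMIs. The upper limits of their ratios there, from 1.17 to 2.87, do not exclude equal levels.

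**Figure D3:**
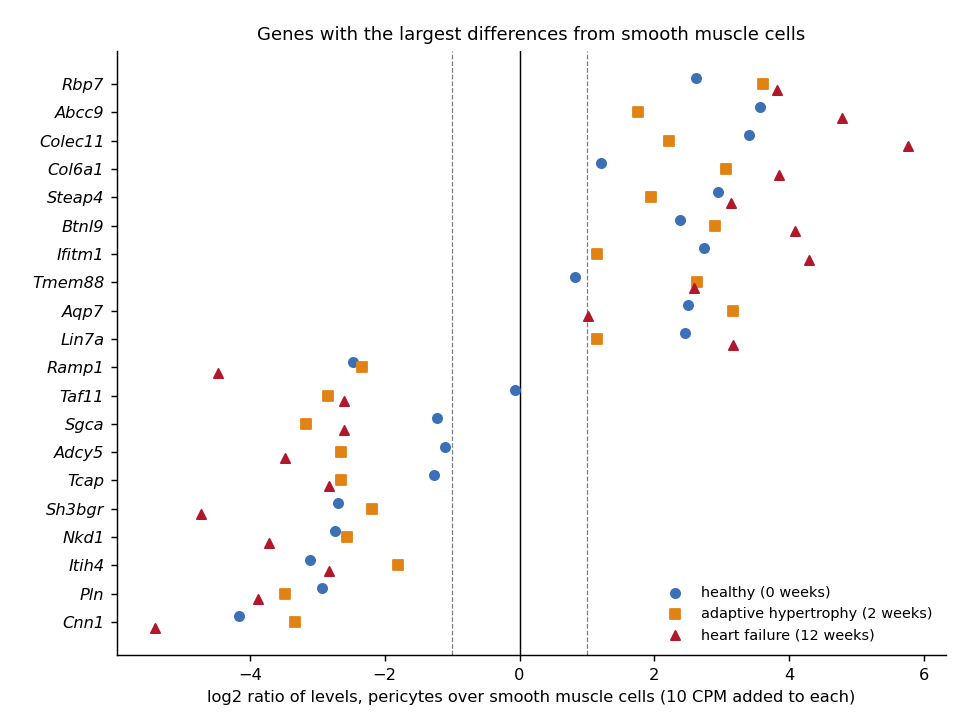
The log2 ratio of levels between pericytes and SMCs of the same library (10 CPM added to each) for the 10 genes with the largest median ratio each way. Points are the 3 libraries, and the dashed lines mark 2-fold. *Abcc9*, *Colec11* and *Steap4* are higher in pericytes in every library, and *Cnn1* and *Pln* lower.

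Other genes known from pericytes did not part the classes in every library. *Higd1b*, although in the rule, was at 660, 661 and 695 CPM in pericytes and 210, 656 and 670 CPM in SMCs, and the ratio in heart failure was 1.04 (0.632 to 1.65). *Rgs4* was at 338, 453 and 1015 CPM in pericytes and at 418, 693 and 721 CPM in SMCs. *Cox4i2* was higher in pericytes than in SMCs in the healthy library, with a ratio of 1.78 (1.57 to 2.02), but not in the other two, with 0.912 (0.676 to 1.22) and 0.898 (0.568 to 1.38). *Notch3* was 2.63 times (1.49 to 4.66) higher in pericytes in heart failure and 1.17 times (0.995 to 1.37) in the healthy library. Receptors and guidance genes that were higher in all 3 libraries were *Nrp1*, a coreceptor for VEGF and semaphorins, with ratios of 3.61, 2.30 and 3.38, and the chemokine gene *Cxcl12*, with 3.26, 2.93 and 3.40.

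Across the phases, pericytes made up 4.24% (3.63 to 4.92) of the healthy cells, 1.39% (0.946 to 1.97) of those in adaptive hypertrophy and 2.40% (1.45 to 3.72) of those in heart failure. The lower share at 2 weeks stood beside a larger share of ECs, from 20.4% of healthy cells to 53.4% by the same kind of rule. Without the high cells, the shares were 1.70% (1.31 to 2.15), 0.628% (0.343 to 1.05) and 1.64% (0.877 to 2.79), so that the healthy and heart failure shares were close while the one at 2 weeks stayed below the healthy one. With over 10 times as many pericyte as endothelial UMIs required, they were 2.21% (1.77 to 2.72), 0.583% (0.311 to 0.994) and 1.89% (1.06 to 3.10). Per EC there were 0.208 (0.174 to 0.246), 0.0260 (0.0176 to 0.0371) and 0.112 (0.0657 to 0.180) pericytes, and without the high cells 0.0830 (0.0636 to 0.107), 0.0117 (0.00640 to 0.0198) and 0.0765 (0.0399 to 0.134). Per SMC the numbers were 0.598 (0.490 to 0.728), 0.705 (0.430 to 1.14) and 0.905 (0.460 to 1.77), with intervals that overlap. There were 276, 44 and 21 SMCs beside 795, 1192 and 170 ECs. Leaving out cells with over 10% mitochondrial UMIs, which were 7, 13 and 5 of the pericytes, the share in adaptive hypertrophy was 0.890%.

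In adaptive hypertrophy *Colec11* and *Abcc9*, which were most abundant in low cells, were at their lowest. *Colec11* was at 170, 36.7 and 534 CPM in the pericytes of the 3 phases, and the 3 UMIs at 2 weeks gave 0.216 times (0.0439 to 0.648) the healthy level. *Abcc9*, at 7 UMIs, had a ratio of 0.552 (0.217 to 1.18), which includes 1. Within cells of smooth muscle UMIs at most 0.25 of pericyte UMIs (66, 14 and 13 cells) the ratios were 0.154 (0.0183 to 0.571) for *Colec11* and 0.388 (0.123 to 0.940) for *Abcc9*, on 2 and 5 UMIs. The rule genes *Kcnj8* and *Vtn*, by which the cells were chosen, were at 225, 49.0 and 294 CPM and at 413, 147 and 988 CPM.

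In heart failure several pericyte markers were higher than in the healthy library. *Colec11* was 3.15 times (1.85 to 5.08) higher, *Steap4* 3.33 times (2.22 to 4.84) and *Rgs4* 3.00 times (2.07 to 4.24). *P2ry14* was at 77.6, 61.2 and 240 CPM, from 53, 5 and 9 UMIs. *Notch3* was at 416, 588 and 721 CPM and *Pdgfrb* at 346, 245 and 614 CPM, and *Heyl*, a Notch target gene, at 49.8, 12.2 and 214 CPM. Since low cells made up 47.4% (24.4 to 71.1) of the pericytes in heart failure and 29.1% (22.3 to 36.7) in the healthy library, the ratios were also taken within the 66 and 13 cells of low and middle kind. There they were 2.33 (1.34 to 3.85) for *Colec11*, 3.26 (2.06 to 5.01) for *Steap4* and 3.90 (2.45 to 6.07) for *Rgs4*. Of the 28 *Rgs4* UMIs behind the last value, 17 came from 2 of the 4 middle cells. Within the 48 and 9 low cells alone the ratios were 1.92 (1.07 to 3.27) for *Colec11*, 3.05 (1.88 to 4.80) for *Steap4* and 1.64 (0.781 to 3.15) for *Rgs4*, which includes 1. The rule genes *Vtn* and *Kcnj8* had ratios of 2.39 (1.65 to 3.38) and 1.30 (0.637 to 2.40) in all pericytes.

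**Figure D4:**
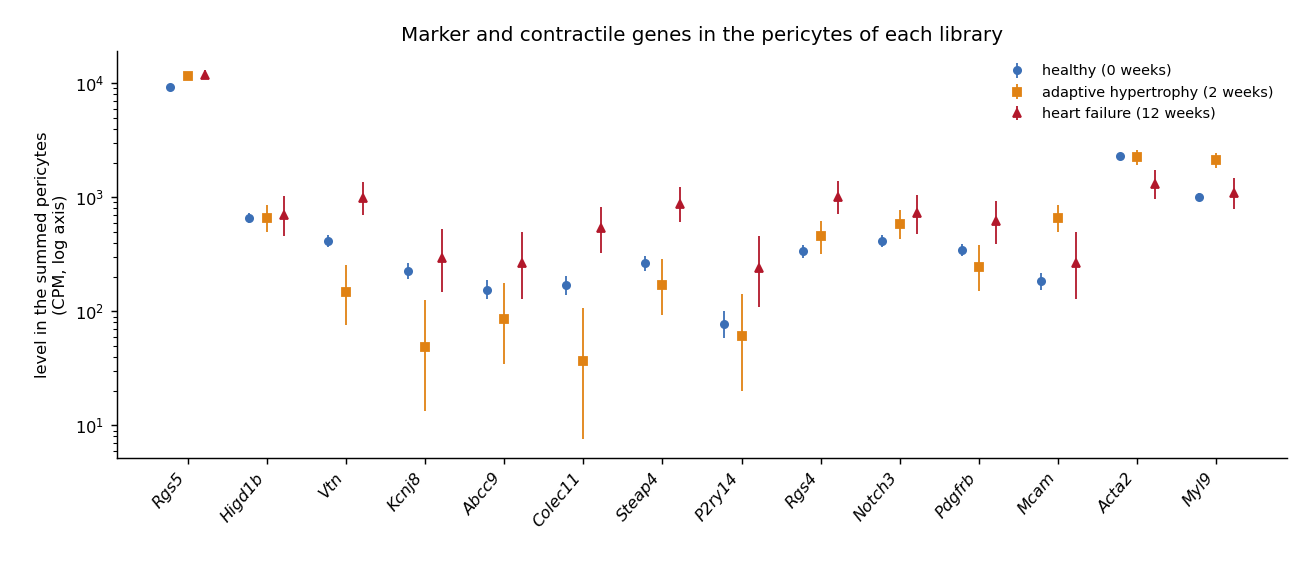
Levels in the summed pericytes (CPM, logarithmic axis) of marker and contractile genes in each library, with 95% Poisson intervals for counting error. *Vtn*, *Kcnj8* and *Colec11* are lowest in adaptive hypertrophy, with *Colec11* at 36.7 CPM, and *Vtn*, *Steap4* and *Rgs4* are highest in heart failure.

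Of 20 contractile genes measured in pericytes, 2 were higher (*Itga8* and *Myl9*) and 1 lower (*Lmod1*) in adaptive hypertrophy, and of 19, 1 was higher (*Aoc3*) and 2 lower (*Synpo2* and *Tpm1*) in heart failure. Over all genes 5.80% were higher and 12.2% lower at 2 weeks, and 10.0% and 20.3% at 12 weeks. *Acta2* was at 2315, 2240 and 1309 CPM and *Tagln* at 1366, 1469 and 775 CPM, values that the rule limits from above. *Myl9*, outside the rule, was at 1013, 2118 and 1095 CPM. It was 2.09 times (1.76 to 2.47) higher in adaptive hypertrophy than in the healthy library, and SMCs had a ratio of 1.36. Within low and middle pericytes the *Myl9* ratio at 2 weeks was 1.72 (0.947 to 2.95), which does not exclude equal levels. In heart failure *Myl9* was 3.55 times (2.09 to 5.80) the healthy level within these cells, on 22 UMIs. *Tpm2* had a ratio of 2.37 (1.32 to 4.03) there, *Mylk* 1.72 (0.751 to 3.50) and *Tpm1* 0.491 (0.209 to 0.988). *Mcam*, the adhesion molecule CD146, was at 183, 661 and 267 CPM and 3.61 times (2.57 to 5.01) higher at 2 weeks. In ECs of the same libraries it was 2.13 times higher.

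Over all genes measured in pericytes, 298 of 5136 (5.80%) were at least 2-fold higher and 629 (12.2%) at least 2-fold lower in adaptive hypertrophy than in the healthy library, with a median log2 ratio of -0.08. For heart failure the counts were 498 (10.0%) and 1006 (20.3%) of 4961, with a median of -0.11. These counts come from single libraries of unequal depth. Of the 20 pericyte markers measured, 1 was higher (*Mcam*) and 2 were lower (*Colec11* and *Tbx18*) in adaptive hypertrophy. Within low and middle cells more markers were lower at 2 weeks. The ratios were 0.339 (0.173 to 0.603) for *Ndufa4l2* and 0.238 (0.0482 to 0.719) for *Art3*. They were 0.438 (0.172 to 0.932) for *Pdgfrb* and 0.437 (0.157 to 0.987) for *Steap4*. Intervals for *Notch3*, *Cox4i2*, *Rgs4* and *Cspg4* included 1, and *Mcam* was 2.60 times (1.42 to 4.54) higher. In heart failure 6 of 20 were higher (*Colec11*, *Enpep*, *P2ry14*, *Rasl12*, *Rgs4* and *Steap4*) and 1 was lower (*Tbx18*, with 22 healthy UMIs and 0 in heart failure), with a median of 0.76.

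The genes with the largest ratios in adaptive hypertrophy were led by *Dbp*, a transcription factor of the circadian clock. It had 5 UMIs in healthy pericytes and 20 UMIs at 2 weeks, or 7.32 and 245 CPM, a ratio of 33.4 (12.2 to 114). The ratio was 52.5 in SMCs and 55.5 in ECs. *Tef*, its relative, was at 20.5, 110 and 0 CPM in pericytes. At 2 weeks 2 of the 7 clock genes measured were higher and 0 lower, beside 5.80% and 12.2% of all genes. *Il6*, a cytokine, was 5.02 times (2.63 to 9.30) higher in pericytes, 4.50 times in SMCs and 5.94 times in ECs, and 10 of its 18 UMIs at 2 weeks came from 1 pericyte. *Sox18*, an endothelial transcription factor, was 4.95 times (2.49 to 9.53) higher in pericytes and 5.74 times in ECs. Clock genes and these others thus differed between the libraries in several cell classes, and what the time of day or handling of the mice contributed was not tested.

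Some ratios were larger in pericytes than in SMCs and ECs, although the difference between classes was not tested. *Atp2a3*, a calcium pump of the endoplasmic reticulum, had 25 UMIs in 12 of 31 pericytes at 2 weeks and 35 UMIs in 28 of 165 healthy ones, a ratio of 5.97 (3.43 to 10.3) beside 1.82 in SMCs and 1.63 in ECs. *S100a4*, a calcium-binding protein, was 8.88 times (4.22 to 18.8) higher beside 4.33 and 1.73. *Sema3f*, a secreted semaphorin, was 8.36 times (3.44 to 20.3) higher beside 2.65 and 4.06. *Nxpe4*, *Sh3rf1*, *Scd2*, a desaturase of fatty acids, and *Fam65a* had ratios between 4.56 and 6.57 on 11 to 18 UMIs. Basement membrane genes were split, with *Hspg2* (perlecan), *Col18a1* and *Lamb2* higher and *Lama2* and *Nid1* lower among 14 measured. Over all genes 5.80% were higher and 12.2% lower. *Hspg2* was at 142, 539 and 53.4 CPM.

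Among the genes lower at 2 weeks, *Cxcl2*, a neutrophil chemokine, had 159 UMIs in 41 healthy pericytes and 1 UMI in adaptive hypertrophy, a ratio of 0.0526 (0.00132 to 0.297). *Kcnq1ot1*, a nuclear antisense RNA, had 178 UMIs and 1 UMI. Other transcripts kept in the nucleus were also low in that library, with *Malat1* at 95204, 19511 and 73569.5 CPM in pericytes and at 51438, 13829 and 31876 CPM in ECs. *G0s2*, an inhibitor of fat breakdown, had 88 UMIs in healthy pericytes and 0 at 2 weeks, a ratio of 0 with an upper limit of 0.358. *C1qb*, *C1qc* and *H2-Eb1*, genes of macrophages and antigen presentation, were at 78, 57 and 61 UMIs in the healthy library and 0 at 2 weeks, beside the lower sum of blood cell markers given above. *Arl4a*, *Rraga*, *Clip1* and *Swt1*, from 49 to 59 UMIs in healthy pericytes, were also at 0, with upper limits of the ratio between 0.539 and 0.654.

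In heart failure the largest ratio belonged to *Gstp1*, a glutathione transferase, with 15 UMIs in heart failure and 11 in healthy pericytes, or 401 against 16.1 CPM. Its ratio was 24.9 (10.7 to 59.9) in pericytes, 28.1 in SMCs, 36.8 in ECs and 22.7 in FBs. *Grcc10* and *Bloc1s1* were likewise 4.47 and 4.34 times higher in pericytes, and 5.13 and 2.88 times in ECs. A difference of that kind, alike in all classes of 1 library, cannot be told apart from a difference between libraries.

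Other ratios in heart failure were larger in pericytes than in ECs and FBs where these could be compared, a difference that was not tested. *Pdzd2*, a protein with several PDZ domains, was at 110 CPM in healthy and 454 CPM in heart failure pericytes, a ratio of 4.14 (2.29 to 7.07) beside 0.512 in SMCs, 0.862 in ECs and 0.395 in FBs. *Itga7*, a laminin receptor chain, was at 119 and 427 CPM, a ratio of 3.60 (1.97 to 6.21) beside 1.63 in SMCs. In heart failure *Itga7* had 0 UMIs in ECs and 1 UMI in FBs, too few to compare. *Sdc1*, the proteoglycan syndecan, was 4.00 times (2.17 to 6.94) higher in pericytes and 4.45 times in SMCs, but 1.11 times in ECs. *Slc29a1*, an adenosine transporter, was 4.56 times (2.21 to 8.72) higher beside 1.54 and 1.21, *Ifngr1*, the receptor of interferon gamma, 3.79 times (1.78 to 7.34) beside 0.553 and 1.79, and *Hprt* 3.72 times (1.68 to 7.44) beside 1.44 and 1.57. These pericyte ratios rest on 10 to 17 UMIs in the 19 cells, and 11 of the 17 *Pdzd2* UMIs came from 1 cell. In SMCs the ratios of *Pdzd2* (0.0599 to 1.97) and *Ifngr1* (0.0646 to 2.14) each rest on 2 heart failure UMIs. Within low and middle cells *Pdzd2* had a ratio of 4.76 (2.48 to 8.73) and *Sdc1* 11.3 (4.64 to 27.5).

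**Figure D5:**
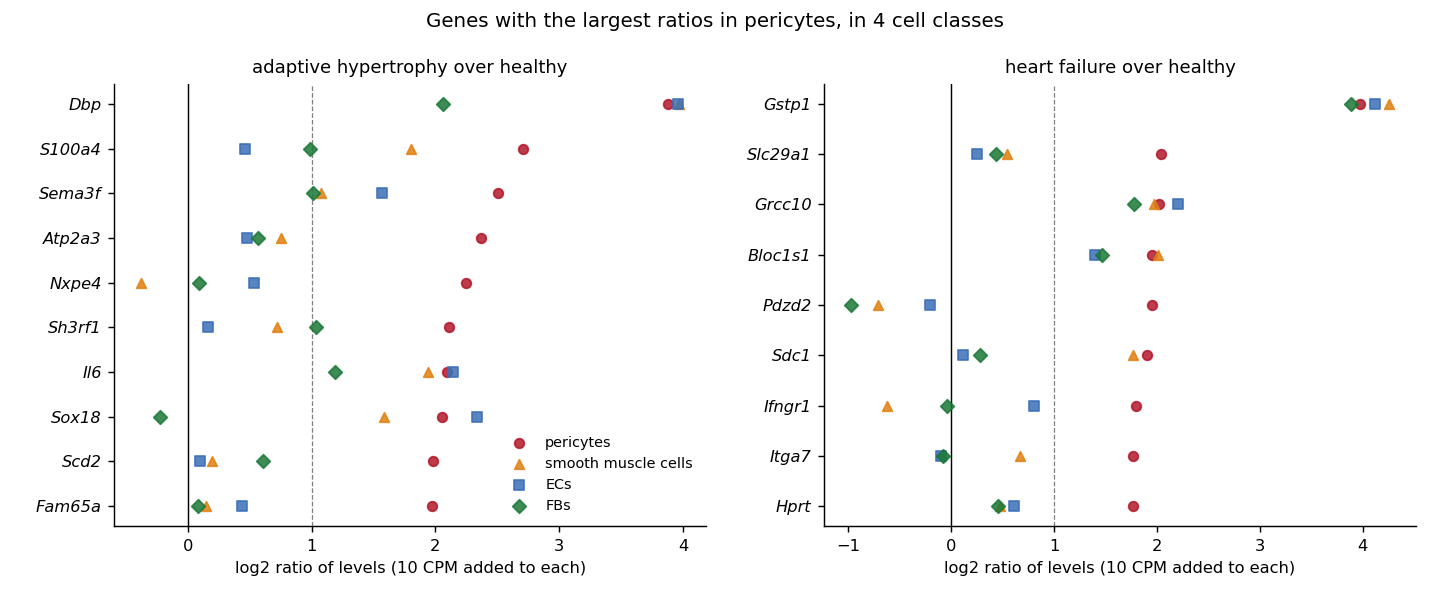
The log2 ratio of levels (10 CPM added to each) for genes with the largest ratios to the healthy library in pericytes of each TAC library, in pericytes, SMCs, ECs and FBs. *Dbp* and *Gstp1* lie between 3.88 and 4.25 in pericytes, SMCs and ECs, while *Pdzd2* is at 1.95 in pericytes and below 0 in the other 3 classes.

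All 10 genes with the lowest ratios in heart failure were at 0 UMIs in its 19 pericytes. The upper limit of the ratio was 0.428 for *Cxcl2* and 0.457 for *Cnn3*, an acidic calponin with 149 healthy UMIs. *Nop10*, *Ptbp3*, *Tacc1*, *Ube3a*, *Siah2*, *Polr2m*, *Nr4a3* and *Ndufv2* had 83 to 107 healthy UMIs and upper limits between 0.640 and 0.829. Within low and middle cells the upper limits were 0.883, 0.883 and 0.922 for *Cnn3*, *Ptbp3* and *Tacc1*. The other upper limits there, from 1.01 for *Nop10* to 4.50 for *Siah2*, do not exclude equal levels. In ECs of the heart failure library, *Cnn3* and *Nop10* had ratios of 1.04 and 1.18. A UMI of 26.7 CPM sets how low a level could be seen here.

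Signalling genes had more members lower than higher in heart failure, and interstitial matrix genes more higher than lower. Of 12 genes of PDGF, angiopoietin and VEGF signalling, 2 were higher in adaptive hypertrophy, beside 5.80% of all genes. They were *Pdgfb* at 42.5 against 184 CPM and the angiopoietin receptor *Tek* at 86.4 against 196 CPM, both genes of ECs. In heart failure 7 of 12 were lower and 0 higher, with a median log2 ratio of -1.28, or -0.32 with the 3 genes at 0 UMIs set to their limit of 3 UMIs. Over all genes 20.3% were lower and 10.0% higher in that library. Of 17 TGF-beta and BMP genes, 5 were lower in heart failure and 0 higher, among them *Tgfb2* with 58 UMIs and *Tgfb3* with 57 UMIs in the healthy library and 0 in heart failure. Among 17 interstitial matrix genes, 4 were higher (*Col6a2*, *Ctgf*, *Dcn* and *Mgp*) and 2 lower. *Mgp*, the matrix Gla protein that inhibits calcification, was at 937, 1261 and 2404 CPM, 2.57 times (2.03 to 3.20) higher in heart failure. *Adm*, the vasodilator adrenomedullin, was at 20.5, 36.7 and 240 CPM, with the 9 heart failure UMIs in 2 cells.

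Of 30 nuclear genes of the respiratory chain, 0 were past 2-fold in adaptive hypertrophy and 3 were lower in heart failure (*Atp5g1*, *Atp5l* and *Cyc1*). *Fos* was at 4947, 4162 and 7587 CPM and *Atf3*, another immediate early gene, at 1747, 832 and 427 CPM, and the 24 genes of dissociation stress summed to 42346, 33330 and 36678 CPM. Of 23 of them measured, 2 were lower and 1 higher at 2 weeks, and 4 were lower and 0 higher at 12 weeks. The shares over all genes were 12.2% lower and 5.80% higher at 2 weeks, and 20.3% and 10.0% at 12 weeks. Cell cycle genes were mostly unseen, with 2 of 15 measured.

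Genes by which pericytes sense and send vascular signals were measured in part. Of 21 vasoactive receptors and cyclic GMP genes, 13 had enough UMIs in adaptive hypertrophy, where *Ednrb*, an endothelin receptor, was 3.80 times (1.61 to 8.36) higher and *Calcrl*, the partner of *Ramp1*, was the 1 gene lower. Among ion channels and gap junction genes 8 were measured in each TAC library, with *Gjc1*, connexin 45, lower at 2 weeks and *Itpr1*, a calcium release channel, higher at 12 weeks. Of 9 Notch genes, *Hey2* was higher and *Heyl* lower in adaptive hypertrophy, while *Heyl* was higher and *Notch1* and *Notch2* were lower in heart failure. Against SMCs, 0 of 9 Notch genes passed 2-fold in all 3 libraries, beside 1.56% of all genes higher and 1.09% lower. Between phases, 5.80% of all genes were higher and 12.2% lower at 2 weeks, and 10.0% and 20.3% at 12 weeks.

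Inflammatory and matrix-degrading genes of pericytes had more members lower than higher in both TAC libraries, as did all genes. Of all genes 5.80% were higher and 12.2% lower at 2 weeks, and 10.0% and 20.3% at 12 weeks. Of 14 chemokine and inflammation genes, 1 was higher (*Il6*) and 4 were lower at 2 weeks, and 5 were lower and 0 higher at 12 weeks, 4 of the 14 being at 0 UMIs in 1 of the libraries compared. Of 13 proteases and their inhibitors, 1 was higher and 2 lower at 2 weeks, and 1 was higher and 6 lower at 12 weeks. *Serpinf1*, the antiangiogenic factor PEDF, was the 1 higher gene in both. *Adamts1*, a protease of proteoglycans, was at 1105, 930 and 267 CPM. Basement membrane genes at 12 weeks were 3 lower and 0 higher of 13 (*Col4a2*, *Hspg2* and *Lama2*). The shares over all genes apply to these counts, which were not tested against them, and the protease counts at 2 weeks lie near those shares.

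Of 14 interferon-stimulated genes, 4 were higher in pericytes than in SMCs in all 3 libraries (*B2m*, *Ifit3*, *Oasl2* and *Rsad2*) and 0 lower, beside 1.56% of all genes higher and 1.09% lower. *B2m*, the light chain of MHC class I, had ratios of 2.06, 2.35 and 2.14. Endothelial markers outside the rule ran the same way, with 6 of 15 higher in pericytes and 0 lower, and their part in the former was not tested. Between phases, 1 interferon gene was higher (*H2-K1*) and 2 were lower of 14 at 2 weeks, and 4 of 13 were lower at 12 weeks, beside the 12.2% and 20.3% of all genes that were lower. *Isg15*, a ubiquitin-like protein, was at 403, 404 and 80.1 CPM. Hypoxia and glycolysis genes had 0 higher and 1 lower of 19 at 2 weeks, and 1 higher (*Adm*) and 3 lower of 20 at 12 weeks. None of the 7 genes of mitochondrial isoform pairs measured, *Ndufa4l2* and *Cox4i2* among them, passed 2-fold over all pericytes of either TAC library. Within low and middle cells at 2 weeks, *Ndufa4l2* had a ratio of 0.339 (0.173 to 0.603) on 12 UMIs. *Cox4i2* had 0.863 (0.551 to 1.30) there.

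Markers of other cells also differed between the phases within the pericytes. Of 5 blood cell markers outside the rule, 5 were lower at 2 weeks and 2 at 12 weeks, beside 12.2% and 20.3% of all genes. *Cd74* was at 426, 61.2 and 481 CPM. Fibroblast markers outside the rule summed to 1035, 526 and 1443 CPM, and *Dcn*, decorin, was at 158, 12.2 and 347 CPM. Cardiomyocyte markers summed to 217, 282 and 107 CPM and neural markers to 269, 171 and 214 CPM, with 11 of 14 and 6 of 8 at 0 UMIs in heart failure. The part of these cells in the pericyte levels was not tested.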

How the data were processed

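Non-CMs of mouse ventricle were measured by 3′ droplet scRNA-seq in 3 libraries, 1 per phase. The authors counted UMIs per gene and cell with Cell Ranger 2.0.0 on mm10 (from the submitters' processing notes) and deposited these raw counts, without normalization, for 27998 genes. Gene and barcode lists were read only to name rows and columns. The pericytes, the 23 gene lists and the limits of size were chosen with earlier results of these data known.

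Cells with at least 200 genes were kept. UMIs were summed over the cells of a class in each library and divided by all their UMIs (CPM). Levels have exact Poisson intervals, ratios conditional binomial intervals and shares Clopper-Pearson intervals, all at 95% and for counting error only. A gene was compared where its UMIs in the 2 groups summed to 20 or more, on the log2 scale with 10 CPM added, which understates the differences of low genes, and a ratio of at least 2 or at most 0.5 was counted. A level of 0 was given the limit of 3 UMIs. With 1 library per phase no test was run. Named genes were the 10 with the largest ratio each way, with at least 10 UMIs in at least 5 cells (against SMCs, the median over 3 libraries with the same sign in each, and at least 20 UMIs in at least 10 cells). Rule, mitochondrial, ribosomal and haemoglobin genes and unnamed models were left out. Results for some genes are not reported here. Of the listed genes, 399 of 402 had 1 row in the files. Coordinates (GENCODE, GRCm38) were matched by Ensembl identifier. The scripts were tested on simulated data. Python 3.11.15, numpy 2.4.6, scipy 1.17.1, pandas 2.3.3, scanpy 1.11.5 and matplotlib 3.10.9 were used. There were 12 alternatives planned and 3 added after the data were seen.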

Additional observations from a re-analysis of the deposited data

Results flagged for a closer look

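*Ndufv2*, a subunit of respiratory complex I, went opposite ways between cell classes of the same pair of libraries. In pericytes it had 83 UMIs in the healthy library and 0 in heart failure, a ratio of 0 with an upper limit of 0.829. Within low and middle pericytes the upper limit was 1.65, which does not exclude equal levels. In SMCs the ratio was 2.58 and in ECs 1.44. The difference between the classes was not tested, and the pericyte value rests on 37434 UMIs from 19 cells.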

How the results depend on the processing

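No paired analysis was possible because each phase is 1 library with no replicate numbers. Of 858 values for named genes under the alternatives, 809 kept their direction and size, 49 moved and 0 reversed. Without cells over 10% mitochondrial UMIs the pericyte share in adaptive hypertrophy was 0.890%. Taking the mean over cells of each cell's CPM gave 946 genes lower in adaptive hypertrophy and 1558 lower in heart failure. At least 50 UMIs gave 102 higher and 216 lower genes in adaptive hypertrophy and 130 higher and 384 lower in heart failure, and no filter on low counts gave 936 and 1615, and 1809 and 2705, since the number of genes compared differs. With 1 CPM added, 135 genes were lower than in SMCs. The next 2 settings were added after the data were seen. Keeping pericytes whose smooth muscle UMIs were at most 0.25 of their pericyte UMIs gave shares of 1.70% in healthy hearts, 0.628% in adaptive hypertrophy and 1.64% in heart failure, 177 higher and 393 lower genes in adaptive hypertrophy, 213 higher and 477 lower in heart failure, and 240 lower than in SMCs. Keeping those with over 10 times the endothelial UMIs gave shares of 2.21%, 0.583% and 1.89%, so that under both the heart failure share was close to the healthy one, 185 genes higher in adaptive hypertrophy, 300 higher and 628 lower in heart failure, and 56 higher than in SMCs. Fewer cells enter both. Other causes were not tested. Depth limits the heart failure pericytes most, where a gene at 0 may have had up to 80.1 CPM, and the few doublets called leave pairs of cells largely unfiltered.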
